A study of Rattus norvegicus with 10 samples.

Results

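Of the miR-15 seed family, which includes miR-16, miR-195 and miR-497, 6 listed mature miRNAs of the rat heart were followed: rno-miR-15b-5p, rno-miR-16-5p, rno-miR-195-5p, rno-miR-497-5p, rno-miR-322-5p and rno-miR-503-5p. They were taken by name from the 761 rat miRNAs on a 3D-Gene one-colour microarray, and all 6 were found. Left ventricles of Wistar males weighing 250 to 350 g gave the total RNA, and the age of the rats was not given in the sources used here. The Control group (5 arrays) received a saline infusion. The DEX group (5 arrays) received dexmedetomidine, a sedative agonist of the alpha2 adrenergic receptor, for 30 min. Per the study's methods, 5 min of saline washout followed, and the heart was taken without ischemia. The RNA came from the anterior wall of the left ventricle. The comparison asked whether the infusion was followed by a difference in the level of each miRNA. The study's methods describe 5 rats per group with RNA taken from each heart, while the labels number the arrays without naming the rat.

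A miRNA is loaded into an Argonaute protein and pairs with messenger RNAs mainly through its seed, the bases near its 5′ end, which lowers the stability or translation of those messages. miRNAs with the same seed can share many targets. The miR-15 family is known for targeting cyclins and checkpoint kinases, and in the rodent heart it has been linked to the withdrawal of cardiomyocytes from the cell cycle after birth.

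The 6 sequences are shown because the seed defines the family. They are printed 5′ to 3′ as RefSeq gives them for the GRCr8 assembly, with bases 2 to 8 in capitals.
rno-miR-15b-5p: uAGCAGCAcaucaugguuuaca
rno-miR-16-5p: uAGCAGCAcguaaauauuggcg
rno-miR-195-5p: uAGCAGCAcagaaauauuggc
rno-miR-497-5p: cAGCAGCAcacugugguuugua
rno-miR-322-5p: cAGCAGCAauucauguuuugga
rno-miR-503-5p: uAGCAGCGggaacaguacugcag
The first 5 share all 7 seed bases, and miR-503-5p has a different base at the end of the seed. Bases 2 to 7 were the same in all 6, and no other of the 693 mature rat sequences in the RefSeq table held them. Of the 761 array miRNAs, 685 were matched to that table by name. The tested miRNAs of the array also included miR-15a-5p, which shares the miR-15 name. It is not among the listed members, and it was not among the sequences found with these bases. The search covered only the sequences of that table, so it does not show that miR-15a-5p lacks the seed. Below, the family means the 6 listed members. Beyond the seed, miR-16-5p and miR-195-5p were the most alike: aligned from the 5′ end they matched at 19 of 21 positions and shared a run of 10 bases after base 8. The other pairs matched at 10 to 16 positions. The probe sequences were not given in the files, so the extent to which the probe of one member also binds another was not tested.

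The 6 listed members come from 3 pairs of neighbouring hairpins. Mir15b at chr2:155555178-155555275 and Mir16 at chr2:155555327-155555421 lie 51 bases apart within the span of Smc4, which encodes a subunit of the condensin complex. Mir497 at chr10:55450171-55450239 and Mir195 at chr10:55450495-55450581 are 255 bases apart and overlap no other gene of the table. Mir503 at chrX:137725856-137725926 and Mir322 at chrX:137726147-137726241 are 220 bases apart within the span of the long non-coding RNA gene LOC102550366. The table gives gene spans, so exon and intron were not resolved here.

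Signals are given in arbitrary units after the blank spots were subtracted and each array was scaled so that its detected miRNAs had a median of 25. All 6 members were detected on 10 of 10 arrays. Nearest to the detection limit were miR-503-5p and miR-15b-5p, which lay at least 9.65 and 11.7 times above the detection floor of their array. Each probe has its own brightness, so levels are compared between arrays and not between members. Whether a lower level reflects fewer cells of a type or less of the miRNA per cell cannot be told apart in bulk tissue.

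No member of the family passed the test of a difference between the DEX and control groups. All 6 were slightly higher in the DEX group, by 1.02-fold (miR-15b-5p) to 1.13-fold (miR-322-5p), and 0 of 6 had an adjusted p under 0.05 or an unadjusted p under 0.05 in limma. Every miRNA that was detected on 5 arrays or more entered the same fit, which called 0 of them (0%) at an adjusted p under 0.05 and 15 (2.98%) at an unadjusted p under 0.05. A small upward difference was common on these arrays, since 298 (59.2%) of the tested miRNAs were higher and 205 lower in the DEX group. The median log2 difference (DEX minus Control) was 0.11 over the 6 members and 0.04 over all tested miRNAs. Between 38.6% (for miR-322-5p) and 90.1% (for miR-15b-5p) of the tested miRNAs had a larger difference in size than the member.

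**Figure D1:**
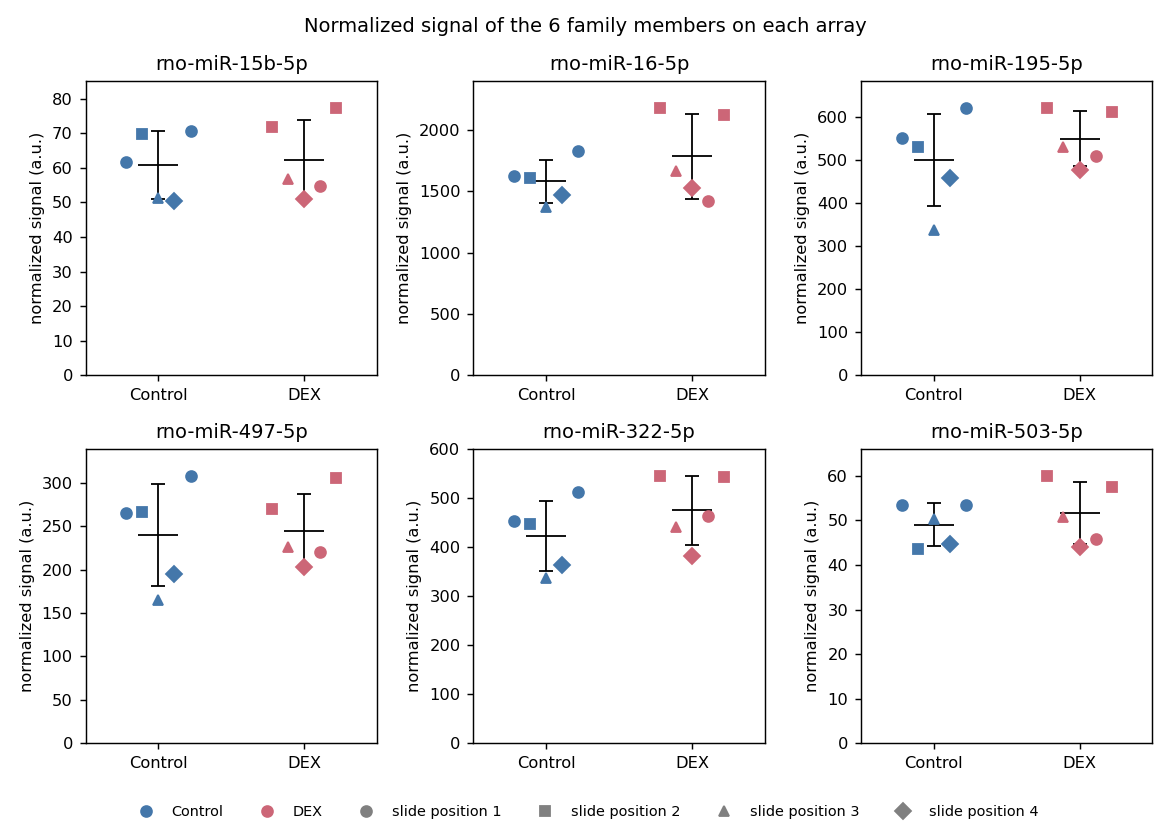
Normalized signal (arbitrary units, axis from 0) of the 6 members on each of the 10 arrays, with 5 Control arrays in blue and 5 DEX arrays in red; marker shapes give the position of the array on its slide, and bars give the group mean ± SD. The groups overlapped for each member, and the DEX arrays of miR-195-5p and miR-497-5p all lay within the range of the Control arrays.

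Both members of the pair within Smc4 overlapped between the groups. The signal of miR-16-5p (MIMAT0000785), which is known to restrain G1 cyclins, was 1625, 1607, 1367, 1470 and 1826 across Control arrays 1 to 5, against 2177, 1667, 1526, 1418 and 2122 across DEX arrays 1 to 5. DEX 1 and DEX 5 lay above every Control array, and the other 3 DEX arrays lay within the Control range. The means were 1579 ± 174 (SD, n = 5) for Control and 1782 ± 347 (SD, n = 5) for DEX, a log2 difference of 0.16 ± 0.16 (SE; limma p = 0.334, adjusted p = 0.905; exact permutation test p = 0.294). The 95% interval ran from 0.880-fold to 1.42-fold.

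Its neighbour miR-15b-5p (MIMAT0000784), which carries the same seed, read 61.5, 69.9, 51.1, 50.3 and 70.6 across Control arrays 1 to 5, against 71.7, 56.6, 50.9, 54.8 and 77.3 across DEX arrays 1 to 5. Again DEX 1 and DEX 5 were the high arrays, and DEX 2 to DEX 4 were in the lower part of the Control range. The means of 60.7 ± 9.78 (SD, n = 5) and 62.3 ± 11.6 (SD, n = 5) gave the smallest difference of the family, 0.03 ± 0.17 on the log2 scale (SE; limma p = 0.850, adjusted p = 0.968; exact permutation test p = 0.810). The 95% interval ran from 0.795-fold to 1.31-fold.

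The pair on chromosome 10 stayed within the range of the Control arrays. The signal of miR-195-5p (MIMAT0000870), which has been described as a brake on mitosis in the mouse ventricle after birth, was 552, 531, 339, 459 and 622 across Control arrays 1 to 5, against 621, 531, 477, 509 and 614 across DEX arrays 1 to 5. Control 3 was the lowest of the 10 arrays and Control 5 the highest, so that no DEX array fell outside the Control range. The means were 501 ± 108 (SD, n = 5) and 550.2 ± 64.1 (SD, n = 5), a log2 difference of 0.16 ± 0.17 (SE; limma p = 0.380, adjusted p = 0.905; exact permutation test p = 0.468), with a 95% interval of 0.859-fold to 1.45-fold. Without Control 3 the log2 difference was 0.0246.

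Its partner miR-497-5p (MIMAT0003383) read 265, 266, 164, 195.02 and 308 across Control arrays 1 to 5, against 269.9, 226, 203, 219.8 and 306 across DEX arrays 1 to 5. The order of the Control arrays was nearly that of miR-195-5p, with Control 3 lowest and Control 5 highest. The means of 239.7 ± 58.5 (SD, n = 5) and 245 ± 42.0 (SD, n = 5) differed by 0.05 ± 0.19 on the log2 scale (SE; limma p = 0.794, adjusted p = 0.955; exact permutation test p = 0.778). Its 95% interval, 0.776-fold to 1.38-fold, was the widest of the family.

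The pair on the X chromosome belongs to a cluster that is conserved in humans, where miR-424 is the counterpart of rat miR-322. The signal of miR-322-5p (MIMAT0001619), which is known for targeting cell cycle genes during muscle differentiation, was 454, 448, 336, 363 and 513 across Control arrays 1 to 5, against 546, 441, 382, 463 and 544 across DEX arrays 1 to 5. DEX 1 and DEX 5 exceeded all Control arrays, and the remaining DEX arrays lay among them. This member had the largest difference of the 6, with means of 423 ± 71.9 (SD, n = 5) and 475 ± 70.0 (SD, n = 5) and a log2 difference of 0.17 ± 0.16 (SE; limma p = 0.306, adjusted p = 0.905; exact permutation test p = 0.246). The 95% interval ran from 0.884-fold to 1.44-fold.

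The signal of miR-503-5p (MIMAT0003213), the member with the divergent seed, was 53.4, 43.5, 50.4, 44.7 and 53.5 across Control arrays 1 to 5, against 60.1, 50.9, 44.1, 45.8 and 57.5 across DEX arrays 1 to 5. DEX 1 and DEX 5 were once more the 2 arrays above the Control range. The means were 49.1 ± 4.74 (SD, n = 5) and 51.7 ± 7.03 (SD, n = 5), and the log2 difference was 0.07 ± 0.14 (SE; limma p = 0.632, adjusted p = 0.916; exact permutation test p = 0.548). The 95% interval, 0.850-fold to 1.29-fold, was the narrowest of the family. In this fit, which has no term for slide, none of the 6 intervals reached 1.5-fold in either direction. With slide as a fixed term, a contrast that rests on the single Control array of slide 2, all 6 intervals were wider and extended past a 1.5-fold decrease.

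**Figure D2:**
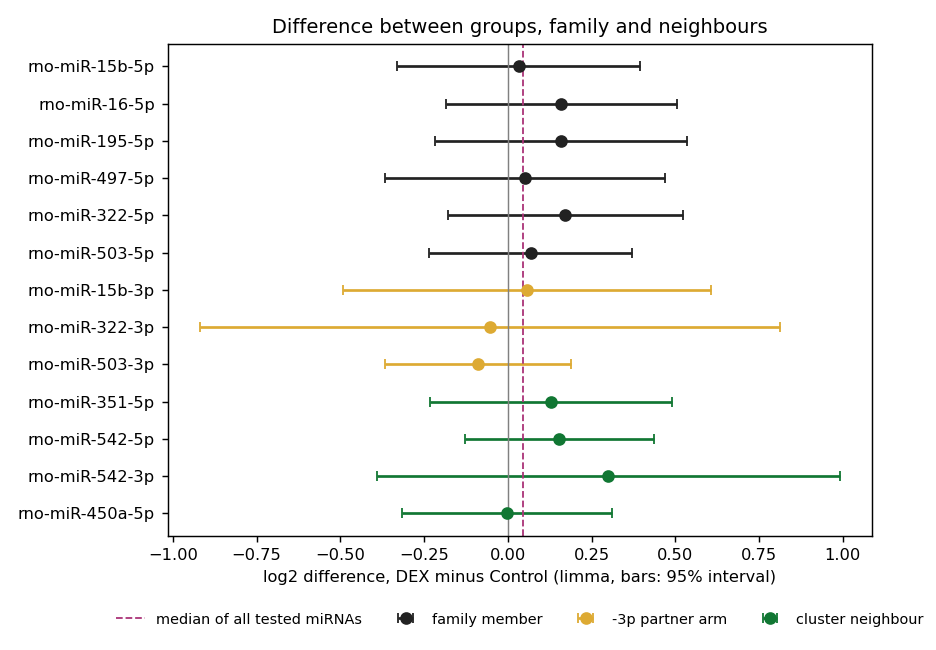
Log2 difference (DEX minus Control) with its 95% limma interval for the 6 members, the 3 tested -3p partner arms and the 4 tested neighbours in the X-chromosome cluster; the dashed line marks the median over all tested miRNAs. Every interval includes 0, and the interval of miR-322-3p is the widest among the arms, from -0.92 to 0.81.

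Under the reported scaling the members' signals varied together from array to array. The mean log2 signal over the 6 members ranged from 7.65 on Control 3 to 8.30 on DEX 5, with 7.94 ± 0.23 (SD, n = 5) for Control and 8.05 ± 0.22 (SD, n = 5) for DEX. Part of this common range moved with the scaling. The median set to 25 was taken over 483 to 533 detected miRNAs, and the family mean was 7.90 or lower on Control 3, Control 4, DEX 3 and DEX 4, the 4 arrays with the fewest detected miRNAs (483 to 492). When the median was taken over the 405 miRNAs detected on every array, the range of the family mean fell from 0.64 to 0.41 and its SD fell to 0.12 in the control group and 0.08 in the DEX group. The difference between the groups was 0.11 under the first scaling and 0.13 under the second. Under the second, the members' log2 differences were 0.05 to 0.19 with adjusted p from 0.632 to 0.845 in limma.

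Across the 10 arrays the 15 pairs of members had a Pearson's r of log2 signal between 0.49 and 0.93 (median 0.81) and a Spearman's rho between 0.61 and 0.98. The permutation p-values for r, adjusted over the 15 pairs, ran from 0.00015 to 0.150. The closest pair was miR-195-5p with its cluster partner miR-497-5p (r = 0.933, rho = 0.976, and r = 0.913 without the 2 arrays farthest from the median). Next came miR-195-5p with miR-322-5p (r = 0.928), which come from different chromosomes. The weakest pairs were those of miR-503-5p, at 0.488 with miR-195-5p and 0.529 with miR-497-5p, and these low values rest on few arrays. Without the 2 arrays farthest from the median they were 0.893 and 0.701, and the weakest pair was then miR-15b-5p with miR-503-5p (r = 0.306). With the scaling over the 405 miRNAs these values changed to 0.846 for miR-195-5p with miR-497-5p, to 0.860 for miR-195-5p with miR-322-5p, and to -0.08 and -0.28 for the pairs of miR-503-5p, so that miR-503-5p no longer moved with the pair on chromosome 10. Over the 15 pairs r was then -0.28 to 0.86 (median 0.56). Among cluster partners it was 0.559 for miR-15b-5p with miR-16-5p, against 0.857 under the reported scaling. For miR-322-5p with miR-503-5p it was 0.133, against 0.652. Arrays share their scaling factor across all miRNAs, and the closeness of a pair also followed that factor.

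The miRNAs outside the family with the most similar profiles over the 10 arrays reached r values of 0.874 to 0.983 with a member. For miR-322-5p they were miR-143-3p (r = 0.983), miR-301a-3p (r = 0.966) and miR-1-3p (r = 0.962), of which miR-1-3p is abundant in heart muscle and miR-143-3p in smooth muscle. For miR-195-5p they were miR-181a-5p (r = 0.972), miR-106b-5p (r = 0.961) and miR-23b-3p (r = 0.954). For miR-497-5p they were miR-23b-3p (r = 0.975), miR-28-5p (r = 0.972) and miR-181a-5p (r = 0.971). The pair within Smc4 had other neighbours, miR-191a-5p, miR-352 and miR-29c-3p for miR-16-5p (r = 0.955 to 0.963) and miR-190a-5p, miR-92a-3p and miR-20a-5p for miR-15b-5p (r = 0.953 to 0.958). For miR-503-5p the closest were miR-335 (r = 0.903), miR-181d-5p (r = 0.896) and miR-3068-5p (r = 0.874), and with the scaling over the 405 miRNAs these values were 0.451, 0.620 and 0.632. The names listed for the other 5 members kept r values of 0.792 to 0.952 under that scaling. The median r of a member with all other tested miRNAs lay between 0.380 and 0.541, so these names are the top of a list and carry no test.

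Ratios within an array remove the scaling factor. Of the 6 ratios tested, 3 compare neighbouring hairpins of a pair and 3 compare the arms of one hairpin, a member over its -3p strand. No ratio passed the test of a difference between the groups after adjustment over the 6 (exact permutation tests, adjusted p from 0.365 to 0.913). With 5 against 5 arrays an exact p cannot go below 0.00794.

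**Figure D3:**
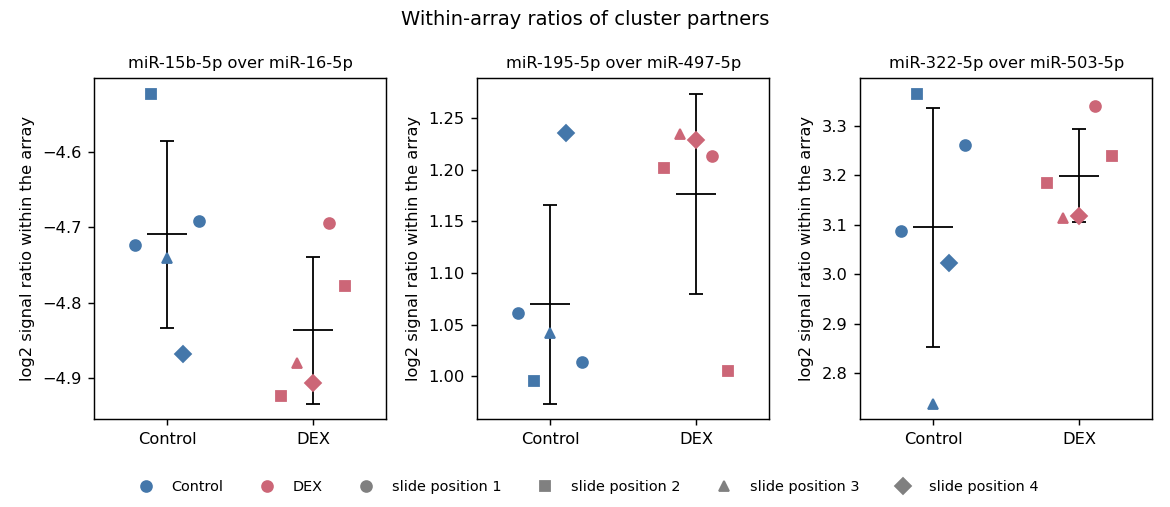
Log2 ratio of cluster partners within each array (vertical axes do not start at 0), with 5 Control arrays in blue and 5 DEX arrays in red; marker shapes give the position on the slide, and bars give the group mean ± SD. The DEX arrays lie lower for miR-15b-5p over miR-16-5p, with 3 of 5 below every Control array, and 4 of 5 lie near 1.2 for miR-195-5p over miR-497-5p.

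The ratio of miR-15b-5p to miR-16-5p came nearest to a difference. It was -4.72, -4.52, -4.74, -4.87 and -4.69 on the log2 scale across Control arrays 1 to 5, against -4.92, -4.88, -4.91, -4.69 and -4.78 across DEX arrays 1 to 5. DEX 1, DEX 2 and DEX 3, which shared slide 2, lay below every Control array, and DEX 4 and DEX 5 from slide 3 lay within the Control range. The means were -4.71 ± 0.12 (SD, n = 5) and -4.84 ± 0.10 (SD, n = 5), a difference of -0.13 (exact permutation test p = 0.0873, adjusted p = 0.365). The single Control array of slide 2, Control 5, was at -4.69. Leaving out Control 4 gave -0.17 (exact permutation test p = 0.0476) and leaving out DEX 4 gave -0.16 (exact permutation test p = 0.0397), before adjustment. Leaving out Control 2 gave -0.0809 (exact permutation test p = 0.214). Normexp background correction turned the difference to 0.20, and under it the log2 difference of miR-16-5p had an SE of 1.11 in limma.

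For miR-195-5p over miR-497-5p the log2 ratio was 1.06, 0.99, 1.04, 1.24 and 1.01 across Control arrays 1 to 5, against 1.20, 1.23, 1.23, 1.21 and 1.005 across DEX arrays 1 to 5. The values fell into a low set of 4 Control arrays with DEX 5 and a high set of 4 DEX arrays with Control 4. The difference of the means was 0.11 (exact permutation test p = 0.183, adjusted p = 0.365). Leaving out Control 4 gave 0.15 (exact permutation test p = 0.0397) and leaving out DEX 5 gave 0.15 (exact permutation test p = 0.0476), both before adjustment, so the size of this difference rests on which of these arrays is included.

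The ratio of miR-322-5p to miR-503-5p was 3.09, 3.36, 2.74, 3.02 and 3.26 across Control arrays 1 to 5, against 3.18, 3.11, 3.12, 3.34 and 3.24 across DEX arrays 1 to 5. All DEX arrays lay within the wide Control range, whose low end was Control 3. The difference was 0.10 (exact permutation test p = 0.429, adjusted p = 0.643), and it was 0.0143 without Control 3 and 0.171 without Control 2. The log2 ratios of a member to its -3p arm differed by -0.03 (miR-15b), 0.23 (miR-322) and 0.16 (miR-503), with exact permutation p of 0.913, 0.563 and 0.175. miR-15b-3p was detected on 2 Control and 4 DEX arrays and was set to the floor on the others. For miR-322 the difference ran from 0.0236 without DEX 3 to 0.496 without Control 4, and it was 0.645 within slide 2. For miR-503 it ran from 0.105 to 0.228 as each array was left out.

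The opposite arms of the hairpins were mostly dim. A hairpin yields a -5p and a -3p strand, of which one is usually kept and the other degraded. miR-497-3p was detected on 0 arrays, miR-195-3p on 2, miR-16-3p on 4 and miR-15b-3p on 6, while miR-322-3p and miR-503-3p were detected on all 10. The 2 arms of the X-chromosome pair are shown because they have seeds unlike that of the family and were measured on every array.
rno-miR-322-3p: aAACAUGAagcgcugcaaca
rno-miR-503-3p: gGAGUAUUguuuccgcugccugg
Capitals again mark bases 2 to 8. The signal of miR-503-3p was 35.4, 39.4, 43.4, 38.9 and 34.4 across Control arrays 1 to 5, against 38.5, 39.0, 32.5, 32.7 and 37.2 across DEX arrays 1 to 5. DEX 3 and DEX 4 lay just below the Control range, and the log2 difference was -0.09 ± 0.13 (SE; limma adjusted p = 0.914). That of miR-15b-3p, which sat at or near the floor, was 0.06 ± 0.25 (SE; limma adjusted p = 0.955).

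The signal of miR-322-3p was 46.3, 37.1, 25.4, 12.0 and 40.2 across Control arrays 1 to 5, against 41.4, 21.5, 12.99, 35.5 and 42.4 across DEX arrays 1 to 5. High and low arrays were found in both groups, and the log2 difference was -0.05 ± 0.40 (SE; limma adjusted p = 0.974). The arrays instead separated by their position on the slide, which is the number of the hybridization cell. Position 1 (3 arrays) had a mean of 40.7, position 2 (3 arrays) 40.3, position 3 (2 arrays) 23.4 and position 4 (2 arrays) 12.5. Positions 3 and 4 were the lowest on both slides that had them, in Control and in DEX arrays alike. With group kept in the model, a test over the 4 positions in limma called 3 of the tested miRNAs (0.596%) at an adjusted p under 0.05, and miR-322-3p had the smallest adjusted p (F = 33.6, adjusted p = 0.00888). With the scaling over the 405 miRNAs its adjusted p was 0.0283. This test was chosen after the values had been seen.

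**Figure D4:**
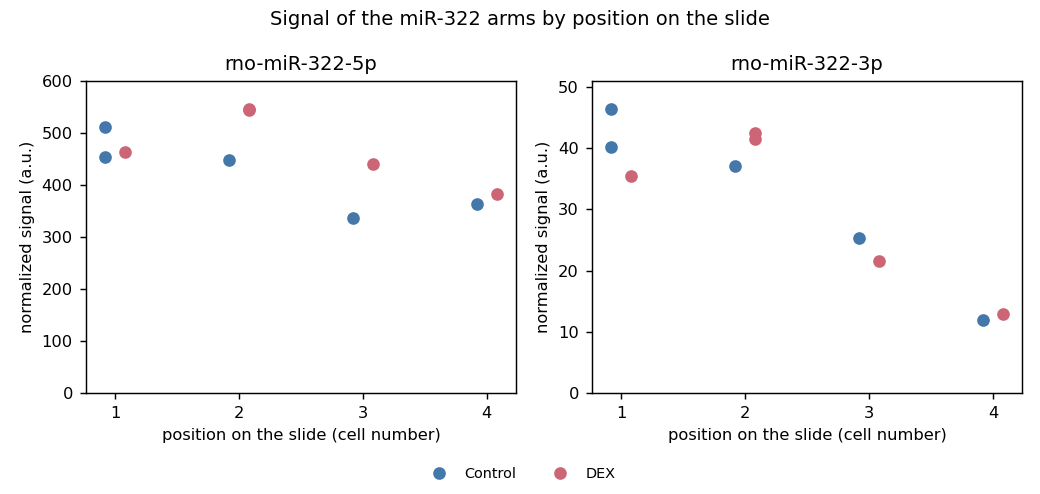
Normalized signal (arbitrary units, axes from 0) of miR-322-5p (left) and miR-322-3p (right) by position of the array on its slide, with Control arrays in blue and DEX arrays in red. miR-322-3p lay at 35.5 or above at positions 1 and 2, at 21.5 and 25.4 at position 3, and at 12.0 and 12.99 at position 4.

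The 6 members were also lower on average at positions 3 and 4 than at positions 1 and 2, but none was called for position. miR-322-5p had means of 477, 512.5, 389 and 373 at positions 1 to 4 (limma adjusted p = 0.379), and miR-15b-5p had 62.3, 73.0, 53.9 and 50.6 (adjusted p = 0.339). For miR-16-5p they were 1623, 1969, 1517 and 1498, and the adjusted p over the 6 members ran from 0.339 to 0.791. Each group held arrays of all 4 positions, with positions 1, 1, 2, 3 and 4 in the control group and 1, 2, 2, 3 and 4 in the DEX group. DEX 1 and DEX 5, which lay above the Control range for miR-15b-5p, miR-16-5p, miR-322-5p and miR-503-5p, were both at position 2. Position 2 had the highest mean for all 6 members, and Control 2 was the only Control array there. Before scaling, DEX 1 was the dimmest array, with a median signal of 17.3 over its detected miRNAs against 35.4 to 53.5 on the others. With position as a term the spread within groups fell from 0.25 to 0.13 on the log2 scale for miR-15b-5p and from 0.23 to 0.13 for miR-322-5p. It fell less for miR-497-5p (0.31 to 0.22), miR-195-5p (0.27 to 0.21) and miR-16-5p (0.23 to 0.20), and for miR-503-5p it was 0.171 without and 0.175 with the term. The log2 differences were then -0.02 for miR-15b-5p, 0.11 for miR-16-5p, 0.15 for miR-195-5p, 0.03 for miR-497-5p, 0.16 for miR-322-5p and 0.06 for miR-503-5p (limma adjusted p from 0.793 to 0.975). Only with position as a term together with the scaling over the 405 miRNAs did a member reach an unadjusted p under 0.05, miR-322-5p at 0.21 ± 0.09 (SE; limma adjusted p = 0.475).

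Slide could not be balanced in the same way. Slide 1 held Control 1 to Control 4, slide 2 held Control 5 with DEX 1 to DEX 3, and slide 3 held DEX 4 and DEX 5, so that group and slide were largely entangled. Within slide 2 the mean of the 3 DEX arrays was below Control 5 for all 6 members, by -0.05 (miR-16-5p) to -0.41 (miR-497-5p) on the log2 scale, with a median of -0.19. DEX 1 itself lay above Control 5 for 4 of them, miR-15b-5p, miR-16-5p, miR-322-5p and miR-503-5p. The median over all tested miRNAs within slide 2 was -0.19 as well, and this contrast rests on 1 Control array. Without slide 3, the log2 differences of miR-15b-5p and miR-497-5p were -0.02 and -0.01, and the median of the 6 was 0.09.

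The neighbours of miR-322 and miR-503 in their X-chromosome cluster were measured in the same fit. Of 6 mature miRNAs from the miR-351, miR-542 and miR-450a hairpins, 4 were tested and 0 were called. miR-542-5p read 26.1, 23.3, 20.8, 26.2 and 26.0 across Control arrays 1 to 5, against 27.8, 26.9, 23.9, 26.7 and 30.8 across DEX arrays 1 to 5. All DEX arrays but DEX 3 lay above the Control range, and its log2 difference of 0.15 ± 0.13 (SE) had an adjusted p of 0.905 in limma (exact permutation test p = 0.111). The log2 differences were 0.13 ± 0.17 for miR-351-5p, 0.30 ± 0.32 for miR-542-3p and -0.002 ± 0.14 for miR-450a-5p (limma adjusted p from 0.905 to 0.997). miR-351-3p was detected on 3 arrays, all of the DEX group, and miR-450a-3p on 0.

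Other miRNAs linked to proliferation or cell cycle exit of cardiomyocytes were also slightly higher for the most part, as were 59.2% of all tested miRNAs. Of 18 listed, among them the muscle miRNAs of the miR-1 and miR-133 families and the proliferative miR-17-92 cluster, all 18 were tested, 16 were higher and 2 lower in the DEX group, and 0 were called in limma at an adjusted or an unadjusted p under 0.05. Their median log2 difference was 0.10, against 0.11 for the 6 members and 0.04 for all tested miRNAs. The direction was not particular to this list. Among the tested cell type markers, 5 of 5 of heart muscle, 4 of 4 of white cells, 2 of 2 of endothelium and 1 of 3 of red cells were higher. Within the list of 18, the highest were miR-17-5p (0.22) and miR-29a-3p (0.18), and the lowest were miR-92a-3p (-0.04) and miR-133b-3p (-0.01).

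The markers of heart muscle were present. All 5 heart muscle miRNAs listed were detected on every array, while of 3 markers of other tissues miR-122-5p of liver and miR-124-3p of brain were detected on 1 array each. The other one, miR-9a-5p, which is abundant in neurons, was detected on all 10 arrays, at 13.05 ± 4.44 (SD, n = 5) for Control and 14.0 ± 4.26 (SD, n = 5) for DEX. Since miR-16-5p is also abundant in red cells, the red cell markers are given beside it. Their summed signal ranged from 564 to 1028 on the Control arrays and from 349 to 1004 on the DEX arrays, with miR-144-5p detected on 0 arrays. Of the 3 tested, 1 was higher and 2 were lower in the DEX group, at log2 differences of 0.02 for miR-486, -0.75 for miR-144-3p and -0.59 for miR-451-5p. miR-451-5p, the erythroid miRNA, was 385, 797, 745, 516 and 401 across Control arrays 1 to 5, against 777, 263, 207, 390.2 and 369 across DEX arrays 1 to 5 (limma adjusted p = 0.905; exact permutation test p = 0.151). Of the red cell markers, miR-486 had the sign of miR-16-5p, and miR-144-3p and miR-451-5p had the opposite sign. Across the 10 arrays miR-16-5p and miR-451-5p had r = 0.068 and rho = -0.079 (permutation p = 0.849 and 0.837, adjusted p for r = 0.868 over 4 relations), and r = -0.310 without the 2 arrays farthest from the median. White cell markers (4 of 4 higher in the DEX group, median log2 difference 0.25, summed signal 690 to 889 on Control and 804 to 1073 on DEX arrays) were called in 0 cases, and their part in the family's values was not tested.

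**Figure D5:**
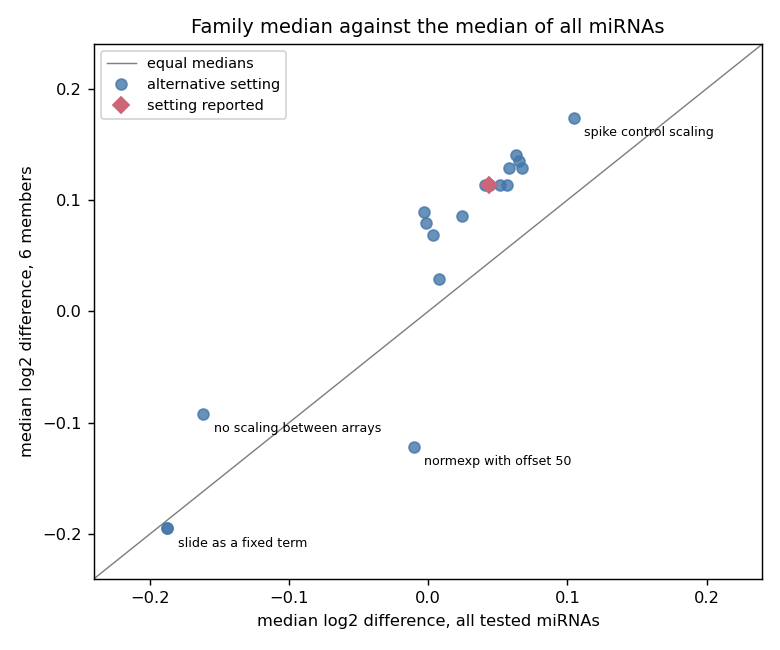
Median log2 difference (DEX minus Control) of the 6 members against that of all tested miRNAs, with the reported setting as a diamond and the alternatives that keep all arrays or leave out a slide as circles; the grey line marks equal medians. The family median runs from -0.19 to 0.17 close to the grey line, and normexp background correction lies farthest below the line.

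The family's median difference moved with the median of all miRNAs across most processing alternatives, in part by construction, with normexp background correction as the exception. The family median minus the median over all tested miRNAs was 0.07 as reported and lay between -0.11 and 0.09 over 30 alternatives. In each of the 30, 0 of 6 members had an adjusted p under 0.05 (smallest adjusted p 0.475). With no scaling between arrays all 6 members were at -0.17 to -0.03, a shift common to all miRNAs, whose median was then -0.16, and the family median minus that median stayed at 0.07.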

How the data were processed

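Total RNA of the left ventricle, extracted with a column kit, was labelled with Cy5 for 3D-Gene rat miRNA chips (5 Control and 5 DEX arrays, grouped and numbered by their labels). Per the file headers, spot values are median intensity readings at 635 nm, combined over 3 gain settings without background subtraction. The deposited series value table gives a score that the authors computed per miRNA and array. Recomputation matched it when the average blank spot, with 5% trimmed at either end, was subtracted from the intensity and the result was scaled so that the 405 miRNAs detected on every array had a median of 25 (within 0.51 for 99.8% of 5038 scores). The study's methods state scaling to a median of 25. Versions of the scanner software and of miRBase were not given in the sources used here.

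Here the blank mean was subtracted, each array was scaled to a median of 25 over its own detected miRNAs (those with a deposited score), an undetected miRNA took the dimmest detected value of its array (the floor), and values were put on the log2 scale with no offset. A miRNA needed detection on 5 arrays to be tested. The tests used limma 3.58.1 (R 4.3.3), with moderated two-sided statistics, no intensity trend, Benjamini-Hochberg correction over all tested miRNAs and a threshold of 0.05. For single values and ratios the exact permutation test was two-sided (252 regroupings), and correlations used 100000 permutations. On simulated data the limma step was tested first. Named miRNAs were the 6 members, their -3p arms, their cluster neighbours, the 3 closest profiles of each member, the extremes of a cell cycle list, and markers; the members and lists were chosen with earlier results of these data known. Sequences and gene spans came from RefSeq (GRCr8). Python 3.11.15, scipy 1.17.1 and matplotlib 3.10.9 were used. The number of arrays limits the precision. Alternatives covered background, scaling, filter, floor, model terms, the methods' t-test, slide, position on the slide (added after the data had been seen) and leaving out each array.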

Additional observations from a re-analysis of the deposited data

Results flagged for a closer look

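Each group of 5 arrays was searched for 1 array lying apart from the others, by the gap to its nearest neighbour as a share of the group's range, against Dixon's critical value of 0.71. Chance gives about 1 in 20 groups, or 1.9 of the 38 groups examined, and 3 were found. In the ratio of miR-195-5p to miR-497-5p, Control 4 stood apart from the control group (share 0.724, log2 ratio 1.24 against 0.99 to 1.06) and DEX 5 from the DEX group (share 0.858, log2 ratio 1.005 against 1.20 to 1.23). In the ratio of miR-322-5p to miR-322-3p, Control 4 stood apart (share 0.732, log2 ratio 4.92 against 3.29 to 3.73), and it was also the lowest Control array for miR-322-3p, at position 4 of its slide.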

How the results depend on the processing

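The count of members past the adjusted threshold was 0 under all 30 alternatives. In 20 of them the 6 members shared one sign, and these include settings that leave the log2 differences unchanged by design. The spread used for the family median was 0.27, the SD of the members' median over the arrays. It describes single arrays and not the uncertainty of a difference between group means. The family median moved beyond it only with slide as a fixed term and within slide 2 (-0.19 each, where the median of all miRNAs was also -0.19). These are the same contrast, since only slide 2 held both groups. The family median also changed sign with normexp background correction (-0.12) and with no scaling between arrays (-0.09). With slide as a fixed term or within slide 2 the log2 differences were -0.257 (miR-15b-5p), -0.0453 (miR-16-5p), -0.21 (miR-195-5p), -0.41 (miR-497-5p), -0.18 (miR-322-5p) and -0.0605 (miR-503-5p), and the log2 ratios of miR-322-5p to miR-503-5p and of miR-503-5p to miR-503-3p became -0.12 and -0.15. With no scaling between arrays, which shifts all miRNAs alike, the members, in the same order, were at -0.173, -0.0458, -0.0472, -0.154, -0.0332 and -0.137. With normexp on the background column miR-16-5p, miR-195-5p, miR-497-5p and miR-322-5p were at -0.158, -0.0863, -0.210 and -0.215, and the ratios of miR-15b-5p to miR-16-5p, miR-322-5p to miR-503-5p and miR-322-5p to miR-322-3p turned to 0.20, -0.23 and -0.26. The limma SE of these members was then 0.35 (miR-195-5p) to 1.11 (miR-16-5p), against 0.16 to 0.19 as reported, so their signs are poorly determined under normexp. For miR-15b-5p and miR-497-5p the values were -0.0099 and -0.0270 with no background correction, -0.0128 and -0.119 with quantile normalization, -0.0453 and -0.0423 with array weights, and -0.0232 and -0.0142 without slide 3. With position as a term miR-15b-5p was at -0.0157. The ratio of miR-15b-5p to miR-15b-3p, at -0.03 as reported, was 0.478 in the series value table, 0.0902 without slide 3 and 0.0716 with position as a term. The series value table leaves undetected values missing. In the reported ratio miR-15b-3p, detected on 2 Control and 4 DEX arrays, took the floor on the others. The cause of these changes was not tested.

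Leaving out each array in turn gave -0.0508 to 0.100 for miR-15b-5p and -0.0753 to 0.151 for miR-497-5p, -0.182 to 0.0883 for the ratio of miR-15b-5p to miR-15b-3p, -0.167 to -0.0809 for miR-15b-5p to miR-16-5p (exact permutation p = 0.0476 without Control 4 and 0.0397 without DEX 4, unadjusted) and 0.0883 to 0.150 for miR-195-5p to miR-497-5p. The range was 0.0820 (without DEX 1) to 0.237 for miR-16-5p, 0.0246 (without Control 3) to 0.244 for miR-195-5p, 0.0941 (without Control 3) to 0.247 for miR-322-5p and 0.0118 (without DEX 1) to 0.123 for miR-503-5p. It was 0.0143 to 0.171 for the ratio of miR-322-5p to miR-503-5p, 0.0236 to 0.496 for miR-322-5p to miR-322-3p and 0.105 to 0.228 for miR-503-5p to miR-503-3p.

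Over the miRNAs detected on every array the replicate numbers showed little pairing: deviations of same-numbered arrays correlated at -0.07 to 0.13. With the replicate number as a block, which by design cannot change the members' group differences, the family median was 0.11. In that limma fit 0 members were called, and 35 tested miRNAs had an unadjusted p under 0.05 against 15 without the block. The SE of the members was 0.10 to 0.11 with the block, against 0.14 to 0.19 without it. Whether same-numbered arrays share a source of variation in the members was not tested. Dim arms (miR-15b-3p, miR-16-3p, miR-195-3p and miR-497-3p) were near the detection floor, which limits what could be measured of them.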
